A study of Mus musculus with 8 samples.

Results

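The genes described here are 41 mouse genes of the endoplasmic reticulum (ER), the compartment where secreted and membrane proteins fold, and of the machinery that exports collagen from it. They were chosen by function: every identifier of the deposited expression table that maps to 1 of the 41 gene symbols was taken, out of 54532 identifiers in all. By role they are 17 general chaperones and folding enzymes, 3 sensors and factors of the unfolded protein response, 8 genes of ER-associated degradation, 5 genes of the translocon and of KDEL retrieval, 5 collagen-specific folding genes and 3 genes of COPII and large-cargo export. All but 1 of them, 40 genes, reached 1 FPKM (fragments scaled to exon length and library depth) in at least 2 of 8 libraries and were tested. Derl3, a derlin channel protein of the degradation pathway, was the exception, at 0.0809 to 0.596 FPKM or an estimated 3 to 23 reads per library.

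RNA was sequenced from mouse cardiac fibroblasts on day 7, in 4 groups of 2 libraries. Control cells carried a vector, and the other cells overexpressed EphrinB2, a ligand of Eph receptors that is anchored in the cell membrane. Either kind of cell was grown in complete medium or under osteogenic differentiation, and the groups are called vector complete, vector osteogenic, EphrinB2 complete and EphrinB2 osteogenic. The type of vector, its promoter, the mouse strain and age, the number of animals and the additives of the osteogenic medium are not stated by the labels. Nor do they say whether the libraries of a group are different cultures, and the p-values therefore rest on library-to-library spread that could be purely technical.

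An estimated 16493963 to 20550687 reads were counted per library. Efnb2, the overexpressed gene, stood at 5.56 to 6.30 FPKM in vector complete, 1.27 to 1.39 in vector osteogenic and 31.3 to 32.9 in EphrinB2 complete libraries. In EphrinB2 osteogenic cells it stood at 5.02 in replicate 1 and 18.3 in replicate 2. EphrinB2 minus vector cells gave 2.26 on the log2 scale in complete and 2.21 in osteogenic medium, and neither passed the test across all genes (limma adjusted p = 1 and 0.567). Replicate 2 of EphrinB2 complete and replicate 1 of EphrinB2 osteogenic stood apart from their partners over many genes, and results are given with and without them where they matter. All 8 fibroblast markers listed were detected. They summed to 1775 to 1792 FPKM in vector complete and 1805 to 1857 in vector osteogenic libraries. The sums were 1910 to 1935 in EphrinB2 complete and 1960 to 2439 in EphrinB2 osteogenic libraries. Col1a2, 1 of the 8, by itself fell by 1.21 on the log2 scale in osteogenic medium, averaged over vector and EphrinB2 cells (limma adjusted p = 0.00123). All 10 macrophage markers were detected as well, at a summed 366 to 420 FPKM in vector complete, 1014 to 1107 in vector osteogenic, 258 to 354 in EphrinB2 complete and 907 to 1735 in EphrinB2 osteogenic libraries. In such bulk RNA, fewer cells of a type and less RNA per cell cannot be told apart.

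Proteins enter the ER through the Sec61 channel, fold with the help of chaperones such as BiP (encoded by Hspa5), and are returned from the Golgi by KDEL receptors if they carry that retrieval signal. When unfolded proteins accumulate, sensors such as Ire1 (Ern1) and Atf6 raise the transcription of chaperone and degradation genes through promoter elements bound by Atf6 and Xbp1. Procollagen needs more than this. Its triple helix is bound by the chaperone Hsp47 (Serpinh1), its prolines are hydroxylated and isomerised, and the long rigid molecule leaves the ER at COPII-coated exit sites with the help of Tango1 (Mia3), steps on which matrix-producing fibroblasts of the heart rely.

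Promoter sequences from RefSeq (GRCm38.p6), covering 250 bases before and 50 after the start of a transcript, were at hand for 34 of the 41 members, in 36 windows, with no entry for Manf, Hyou1, Atf6, Derl1, Sec61a1, Kdelr2 and Fkbp10. They were searched on both strands for the ER stress element, which is CCAAT and CCACG separated by any 9 bases, and for ER stress element II, which is ATTGG and CCACG separated by any 1 base. No member held both. The first was found in 9 members (Hspa5, Hsp90b1, Calr, Canx, Pdia6, Dnajc3, Creld2, Syvn1 and Derl3). That was 9 of 36 member windows, against 0.119% of all 32851 promoters in the table. The second was found in 2 members, Dnajb11 and Herpud1, or 2 of 36 member windows, against 0.0365% of all promoters. Such elements are known from chaperone and degradation genes, so their higher share among the members is no independent result. No window of a collagen-specific folding or export gene held either set of letters. The lack was not particular to them. The general members Pdia3, Pdia4, Pdia5, P4hb, Dnajb9, Dnajc10 and Sdf2l1 held neither, nor did Xbp1, Ern1, Sec61b, Kdelr1 and Kdelr3. A strict heat shock element, GAA, TTC and GAA with any 2 bases between them, was in 0 member windows and in 0.603% of all promoters. These matches are descriptions of sequence and not of binding.

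The stretches upstream of Hspa5, a general chaperone gene with the element, and of Serpinh1, the collagen chaperone gene without it, are shown as examples of a window with and a window without the element. They lie at chr2:34771840-34772089 on the plus strand and at chr7:99353240-99353489 on the minus strand and end 1 base before the transcript start. Capitals mark the fixed letters of the element.
Hspa5: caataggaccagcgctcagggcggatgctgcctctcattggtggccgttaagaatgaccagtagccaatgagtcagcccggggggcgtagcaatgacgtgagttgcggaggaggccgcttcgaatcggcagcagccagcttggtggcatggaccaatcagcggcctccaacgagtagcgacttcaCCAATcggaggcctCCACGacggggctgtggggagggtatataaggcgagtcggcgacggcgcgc
Serpinh1: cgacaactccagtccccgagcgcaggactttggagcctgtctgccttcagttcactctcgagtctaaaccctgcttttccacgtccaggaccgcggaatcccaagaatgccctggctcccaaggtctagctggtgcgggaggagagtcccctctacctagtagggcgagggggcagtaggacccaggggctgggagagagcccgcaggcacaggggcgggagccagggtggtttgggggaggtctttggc
The matches of Hspa5 and other members are given in the element's own direction, again with its fixed letters in capitals. They show the shared ends and the differing 9-base spacer of the first element. The match of Herpud1 is to ER stress element II, with ATTGG first and a spacer of 1 base. Hspa5 has its match at -65 to -47 from the start, Hsp90b1 at -212 to -194 and on the other strand at -107 to -89, Canx at -145 to -127, Calr on the other strand at -162 to -144, Pdia6 at -98 to -80 and Herpud1 at -52 to -42.
Hspa5: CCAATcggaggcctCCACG
Hsp90b1: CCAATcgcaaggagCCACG
Hsp90b1: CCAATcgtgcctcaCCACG
Canx: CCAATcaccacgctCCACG
Calr: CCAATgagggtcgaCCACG
Pdia6: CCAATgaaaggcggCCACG
Herpud1: ATTGGgCCACG

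The comparison of osteogenic with complete medium asks how the level of each gene differed between the culture conditions. The collagen chaperone Serpinh1 fell 2.55-fold in osteogenic medium, and the collagen isomerase Fkbp10 and the lectin chaperone Canx fell by 0.89 and 0.88 on the log2 scale. The stress factor Xbp1 (0.03), the soluble lectin chaperone Calr (0.05) and the export receptor Mia3 (-0.18) did not pass. Averaged over vector and EphrinB2 cells, 13 of the 40 tested members fell and 0 rose (limma on log2(FPKM + 1), Benjamini-Hochberg adjusted over 12994 genes, threshold 0.05). Over all tested genes 9.44% fell and 10.3% rose. The median log2 difference of the members was -0.32 and that of all genes 0.01, and 33 of the 40 members lay below 0. Macrophage markers moved with the medium, with 9 of 10 risen in this averaged comparison, and their part in the members' differences was not tested. Without vector complete replicate 1 or 2 or vector osteogenic replicate 2, 3 members passed, namely Serpinh1, Canx and Fkbp10, and without vector osteogenic replicate 1 Kdelr3 passed as well. The share of all genes that fell was 4.21% and 4.28% without vector complete replicate 1 and 2, and 4.17% and 4.09% without vector osteogenic replicate 1 and 2. The share that rose in these 4 fits was 5.36%, 5.4%, 5.24% and 5.13%. Without EphrinB2 osteogenic replicate 2, 20 members fell and 1 rose, Edem2, against 19.6% and 20.5% of all genes.

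In vector cells alone 3 of 40 members fell and 0 rose, against 3.11% and 4.41% of all genes. An unadjusted p under 0.05 was found for 16 members and for 19.5% of all genes. In EphrinB2 cells alone 5 of 40 fell and 0 rose, against 5.44% and 6.36% of all genes, and an unadjusted p under 0.05 for 15 members and 30.2% of all genes. These fits take the spread from all 8 libraries. With the 4 vector libraries fitted alone, whose partners lay close together, 25 of 40 members fell and 0 rose, against 22.1% and 18.5% of all genes. With the 4 EphrinB2 libraries fitted alone 0 of 40 passed, against 0.854% of all genes risen and 0.323% fallen. Leaving out any 1 vector library left 0 calls in vector cells (0.408% to 0.523% of all genes fell and 0.893% to 1.08% rose) and 1 call, Serpinh1, in EphrinB2 cells (2.41% to 2.57% fell and 3.13% to 3.32% rose). Leaving out EphrinB2 osteogenic replicate 1 or 2 gave 12 calls in vector cells, where 6.03% of all genes fell and 7.43% rose. In EphrinB2 cells it gave 9 calls without replicate 1 (4.56% of all genes fell and 5.43% rose) and 21 without replicate 2 (20.6% and 23.1%). Without EphrinB2 complete replicate 2 there were 2 calls in EphrinB2 cells (2.09% and 2.79%).

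**Figure D1:**
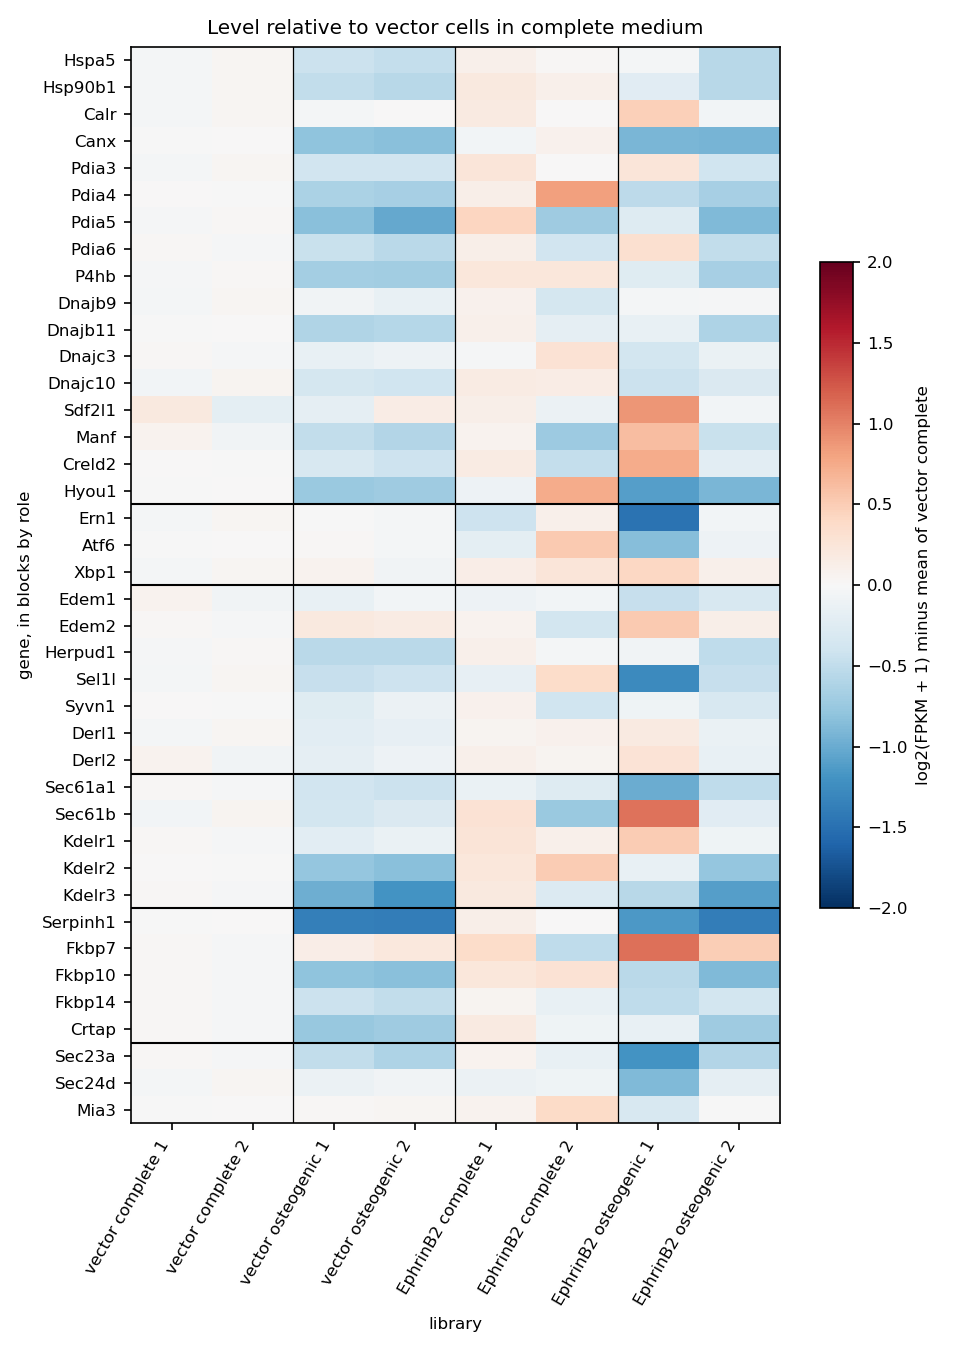
Heat map of log2(FPKM + 1) minus its mean in the vector complete libraries, with the 40 tested genes in rows, blocked by role from general chaperones at the top to export at the bottom, and the 8 libraries in columns, blocked by group. The osteogenic libraries are bluer (lower) over most rows, 33 of 40 on average, and EphrinB2 osteogenic replicate 1 differs from its partner with both redder and bluer rows.

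General chaperones and folding enzymes were lower in osteogenic medium in 6 of 17 cases by the test and in none higher, with a median log2 difference of -0.40. Of all tested genes 9.44% fell and 10.3% rose. The 6 were Canx, Hyou1, Pdia4, P4hb, Hsp90b1 and Dnajc10. Canx and Hyou1 act on glycoprotein folding and on the nucleotide cycle of BiP, and Pdia4, P4hb and Dnajc10 are oxidoreductases that make or break disulfide bonds. Only Canx kept its call without any 1 of the vector libraries, and Hsp90b1 and Dnajc10 also lost theirs without EphrinB2 complete replicate 2 (adjusted p = 0.0562 and 0.0526), Hsp90b1 also without EphrinB2 complete replicate 1 (0.0556).

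Canx, calnexin, is the membrane-bound lectin chaperone (ENSMUSG00000020368, GRCm38 chromosome 11, 50293961 to 50325673, minus strand). It was measured at 122 and 124 FPKM in vector complete libraries, at 69.8 and 69.0 in vector osteogenic, at 119 and 131 in EphrinB2 complete and at 64.9 and 64.5 in EphrinB2 osteogenic libraries. All 4 osteogenic libraries lay below all 4 complete ones. The log2 difference was -0.88 (SE 0.11, limma adjusted p = 0.00244), and it was -0.82 in vector and -0.94 in EphrinB2 cells (adjusted p = 0.0253 and 0.0128). The calls within 1 kind of cell were lost without any 1 vector library, and that in EphrinB2 cells also without EphrinB2 complete replicate 2 (adjusted p = 0.0547). Calr, calreticulin, the soluble relative of calnexin, ranged from 288 to 417 FPKM with overlapping groups, and its log2 difference was 0.05 (95% interval -0.33 to 0.43). The FPKM ratio of Canx to Calr was 0.405 to 0.420 in vector complete and 0.229 to 0.242 in vector osteogenic libraries, and 0.351 to 0.437 and 0.155 to 0.224 in the matching EphrinB2 groups.

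Hyou1, the nucleotide exchange factor Grp170 of BiP, stood at 26.3 and 26.9 FPKM in vector complete and 15.6 and 15.9 in vector osteogenic libraries. In EphrinB2 cells its values were 24.7 and 45.1 for complete medium against 11.8 and 13.6 for osteogenic medium, so that the complete partners lay far apart while the media did not overlap. Its log2 difference was -1.03 (SE 0.19, limma adjusted p = 0.0118). Pdia4, a protein disulfide isomerase of the BiP complex, had 75.9 and 75.3 FPKM in vector complete, 48.3 and 47.2 in vector osteogenic, 82.4 and 134.8 in EphrinB2 complete and 52.1 and 47.2 in EphrinB2 osteogenic libraries. It fell by 0.86 on the log2 scale (SE 0.17, limma adjusted p = 0.0157). The high values of both genes in complete medium were those of EphrinB2 complete replicate 2. In EphrinB2 cells alone the log2 difference was -1.33 for Hyou1 and -1.07 for Pdia4 (adjusted p = 0.0255 and 0.0368). Neither passed there without any 1 vector library or without EphrinB2 osteogenic replicate 1 (0.0863 and 0.0705), nor Pdia4 without EphrinB2 complete replicate 2 (0.0906).

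P4hb is protein disulfide isomerase and also the beta subunit of collagen prolyl 4-hydroxylase. Its 363.9 and 378 FPKM in vector complete compared with 232 and 229.9 in vector osteogenic libraries, and 433 and 435 in EphrinB2 complete with 313 and 234 in EphrinB2 osteogenic libraries. Every complete library lay above every osteogenic one, and the log2 difference was -0.68 (SE 0.14, limma adjusted p = 0.0176). Dnajc10, an ER reductase with a J domain, had 41.7 and 44.7 FPKM in vector complete, 33.6 and 32.5 in vector osteogenic, 48.4 and 47.9 in EphrinB2 complete and 31.9 and 35.2 in EphrinB2 osteogenic libraries. Its groups did not overlap either, with a log2 difference of -0.44 (SE 0.11, limma adjusted p = 0.0296).

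Hsp90b1, the ER Hsp90 paralog Grp94, was at 137 and 145 FPKM in vector complete, 100.3 and 95.9 in vector osteogenic, 162 and 152 in EphrinB2 complete and 120.2 and 95.8 in EphrinB2 osteogenic libraries. The media did not overlap, and its log2 difference was -0.53 (SE 0.13, limma adjusted p = 0.0306). Hspa5, or BiP, the Hsp70 of the ER (ENSMUSG00000026864, chromosome 2, 34771970 to 34777547, plus strand), had 175 and 186 FPKM in vector complete and 134 and 129 in vector osteogenic libraries. Its EphrinB2 values were 195 and 183 for complete medium against 175 and 123 for osteogenic medium. The replicate at 175 lies within the range of the complete libraries, and the log2 difference of -0.40 did not pass (SE 0.15, limma adjusted p = 0.111). Without EphrinB2 osteogenic replicate 1 or replicate 2, which leaves a lone library in that group, Hspa5 passed. It passed too in the 4 vector libraries fitted alone.

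The other 10 general members, Calr among them, did not pass, with log2 differences between -0.68 and 0.20. Pdia5 lay at -0.68 (adjusted p = 0.132), the BiP co-chaperone Dnajb11 at -0.47 (adjusted p = 0.065) and the glycoprotein disulfide isomerase Pdia3 at -0.30. Near 0 were Dnajb9 at 0.00, Creld2 at 0.03, Manf at -0.07 and Sdf2l1 at 0.20. The last 3 are small ER proteins known as stress-induced genes, and EphrinB2 osteogenic replicate 1 held them at 32.6, 47.5 and 31.3 FPKM against 16.3, 22.1 and 15.8 in its partner. Without both libraries that stood apart Creld2 was at -0.37, with 1 library left in each EphrinB2 group.

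The 3 genes of stress sensing did not pass in any comparison with all 8 libraries, and 0 of the 3 had an unadjusted p under 0.05 in the media comparisons. Of all tested genes 19.5% had such a p in vector cells, 30.2% in EphrinB2 cells and 33.4% in the averaged comparison. Xbp1, the transcription factor that Ire1 activates by splicing its mRNA, stood at 38.1 and 39.96 FPKM in vector complete and 41.2 and 37.1 in vector osteogenic libraries. In EphrinB2 cells complete medium gave 43.1 and 46.5 and osteogenic medium 52.2 and 42.04. Its groups overlapped between media, with a log2 difference of 0.03 (95% interval -0.26 to 0.33). Gene-level FPKM does not separate the spliced from the unspliced form. Ern1 and Atf6 lay within 10.6 to 11.3 and 11.6 to 12.2 FPKM in the 4 vector libraries. In EphrinB2 osteogenic replicate 1 they were at 3.298 and 6.17, their lowest values, against 10.4 and 11.1 in its partner. Their averaged log2 differences were both -0.32. For Ern1 the estimate was 0.16 without both libraries that stood apart and -0.67 without EphrinB2 osteogenic replicate 2. The first of these fits leaves 1 library in each EphrinB2 group, and the second leaves replicate 1 alone in its group.

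In ER-associated degradation misfolded proteins are returned to the cytosol for destruction. In this pathway 0 of the 7 tested members passed with all libraries. An unadjusted limma p under 0.05 was found for 2 of 7 in the averaged comparison, against 33.4% of all tested genes. The median log2 difference of the 7 was -0.11. Sel1l, the adaptor of the ubiquitin ligase Syvn1, was lower by estimate, at -0.70 (SE 0.21, adjusted p = 0.0615), as was the stress-induced Herpud1 at -0.43 (SE 0.13, adjusted p = 0.0694). All 4 osteogenic values of both genes lay below all complete ones, at 13.8 to 25.8 against 31.0 to 44.97 FPKM for Sel1l and 24.5 to 34.6 against 35.2 to 38.8 for Herpud1. Edem2, which starts mannose trimming of doomed glycoproteins, was the only member with all osteogenic libraries above all complete ones, at 6.89 to 9.46 against 4.67 to 6.66 FPKM, and its log2 difference of 0.32 did not pass (adjusted p = 0.174). For comparison, 16.8% of all tested genes had all osteogenic libraries below and 15.9% above the complete ones, and of the 40 members 17 lay below. Syvn1, Derl1, Derl2 and Edem1 lay between -0.21 and -0.08. In the 4 vector libraries fitted alone Sel1l, Herpud1 and Derl1 fell, 3 of 7, against 22.1% of all tested genes. Leaving out EphrinB2 osteogenic replicate 2 from the averaged comparison also let Sel1l, Herpud1 and Edem2 pass, as did leaving out replicate 1 for Herpud1. Each of these fits leaves a lone library in that group.

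Of the translocon and retrieval genes 2 of 5 fell, both KDEL receptors, against 9.44% of all tested genes. Kdelr3 was at 53.1 and 51.5 FPKM in vector complete, 26.1 and 22.4 in vector osteogenic, 60.2 and 42.9 in EphrinB2 complete and 35.2 and 23.8 in EphrinB2 osteogenic libraries. Kdelr2 was at 86.8 and 85.8, 50.1 and 47.95, 101.3 and 123.5, and 77.9 and 50.1 in the same order. Neither gene's media overlapped. Kdelr3 fell by 0.94 on the log2 scale (SE 0.18, limma adjusted p = 0.0122) and Kdelr2 by 0.82 (SE 0.17, adjusted p = 0.0178), while Kdelr1 was at -0.07 (95% interval -0.45 to 0.31). As a share of the summed FPKM of the 3 receptors, Kdelr1 made up 29.0% to 32.1% in complete and 41.7% to 45.2% in osteogenic libraries. Kdelr2 lost its call without any 1 vector library or without EphrinB2 complete replicate 2 (adjusted p = 0.0568), and Kdelr3 without any 1 vector library other than vector osteogenic replicate 1. The channel subunit Sec61a1 was at -0.48 (adjusted p = 0.0519), and the small subunit Sec61b, with 23.6 to 85.8 FPKM, at 0.16 (95% interval -0.65 to 0.97). Without both libraries that stood apart, Sec61b was at -0.43, with 1 library left in each EphrinB2 group.

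Of the 5 collagen-specific folding genes 4 fell in osteogenic medium, against 9.44% of all tested genes, with a median log2 difference of -0.61 over the 5. Serpinh1, which encodes Hsp47, the chaperone of the collagen triple helix (ENSMUSG00000070436, chromosome 7, 99345376 to 99353239, minus strand), was the highest of the 41 members in FPKM in each library. Vector complete libraries held 978 and 986 FPKM and vector osteogenic libraries 381 and 376. EphrinB2 complete libraries held 1065 and 986 and EphrinB2 osteogenic libraries 444 and 375. The media were far apart, and the libraries within a group close to each other. The level was 2.55-fold lower in osteogenic medium, a log2 difference of -1.35 (SE 0.13, limma adjusted p = 0.000839), with -1.37 in vector and -1.33 in EphrinB2 cells (adjusted p = 0.00723 and 0.0068). In vector cells alone the call was lost without any 1 vector library (adjusted p = 0.105 to 0.116), while the averaged and EphrinB2 calls held without each library in turn. With the 4 EphrinB2 libraries fitted alone it did not pass (adjusted p = 0.192). As a share of the summed FPKM of the 41 members, Serpinh1 made up 26.0% to 27.2% in complete and 14.5% to 16.3% in osteogenic libraries. Its ratio to Hspa5 was 5.29 to 5.59 in complete and 2.53 to 3.04 in osteogenic libraries.

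Fkbp10, the prolyl isomerase and collagen chaperone Fkbp65 (ENSMUSG00000001555, chromosome 11, 100415697 to 100424824, plus strand), was at 90.8 and 87.7 FPKM in vector complete and 50.4 and 49.6 in vector osteogenic libraries. In EphrinB2 cells complete medium gave 104 and 109 and osteogenic medium 61.4 and 47.9. Complete and osteogenic libraries did not overlap, and the log2 difference was -0.89 (SE 0.13, limma adjusted p = 0.00394). In vector and in EphrinB2 cells taken singly it was -0.82 and -0.96 (adjusted p = 0.0397 and 0.0185), and both calls were lost without any 1 vector library or EphrinB2 complete replicate 2, the first also without EphrinB2 complete replicate 1. Fkbp10 shares 6.6% of its exon bases with Nt5c3b on the opposite strand, and whether reads were counted by strand is not stated.

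Fkbp14, a further ER prolyl isomerase that binds collagen, had 17.7 and 17.1 FPKM in vector complete, 12.7 and 12.03 in vector osteogenic, 18.1 and 15.6 in EphrinB2 complete and 11.99 and 13.2 in EphrinB2 osteogenic libraries. Its media did not overlap, with a log2 difference of -0.42 (SE 0.10, limma adjusted p = 0.0322). Crtap, the scaffold of the prolyl 3-hydroxylation complex, had group means of 136 ± 2.37 (SD, n = 2), 81.4 ± 2.32, 141 ± 18.3 and 102 ± 28.2 FPKM in the same order and fell by 0.61 (SE 0.16, limma adjusted p = 0.0418). Both calls were lost without any 1 vector library and without EphrinB2 complete replicate 1, that of Crtap also without EphrinB2 complete replicate 2. Fkbp7, a related isomerase, went against the others by estimate. It stood at 27.2 to 28.1 FPKM in vector complete, 30.4 to 32.2 in vector osteogenic, 19.1 to 35.9 in EphrinB2 complete and 39.3 to 60.7 in EphrinB2 osteogenic libraries. Its log2 difference of 0.52 did not pass (SE 0.23, limma adjusted p = 0.165). It passed without both libraries that stood apart or without EphrinB2 complete replicate 1, fits that leave a lone library in an EphrinB2 group.

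Of the 3 export genes 1 fell, against 9.44% of all tested genes. Sec23a, an inner coat subunit of COPII vesicles, was at 30.5 and 29.7 FPKM in vector complete, 21.2 and 19.3 in vector osteogenic, 31.7 and 27.1 in EphrinB2 complete and 12.6 and 19.7 in EphrinB2 osteogenic libraries. The media did not overlap, and EphrinB2 osteogenic replicate 1 was the lowest. The log2 difference was -0.70 (SE 0.16, limma adjusted p = 0.0245), and it did not pass without any 1 vector library (adjusted p = 0.0900 to 0.116) or without EphrinB2 complete replicate 1 (0.0585). Mia3, or Tango1, which connects collagen to the COPII coat at exit sites, was at 26.7 and 26.8 in vector complete, 27.1 and 27.4 in vector osteogenic, 28.0 and 35.0 in EphrinB2 complete and 21.1 and 26.7 FPKM in EphrinB2 osteogenic libraries. The 4 vector libraries lay within 26.7 to 27.4 FPKM, and the averaged log2 difference was -0.18 (95% interval -0.49 to 0.13). Sec24d, a cargo-binding coat subunit, was at -0.26 (95% interval -0.66 to 0.14).

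**Figure D2:**
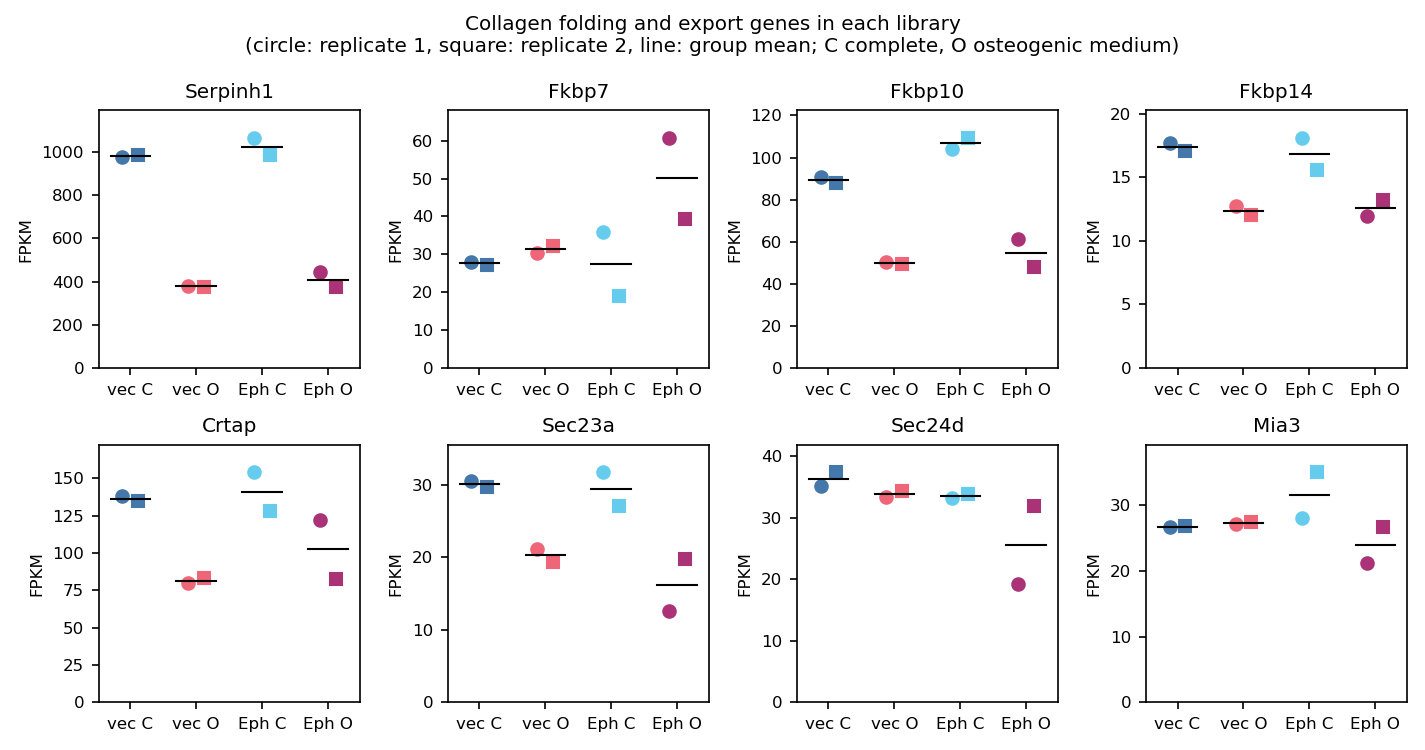
FPKM of the 5 collagen-specific folding genes and the 3 export genes in each library, 1 panel per gene, with the groups on the x axis and a line at each group mean. Serpinh1, Fkbp10, Fkbp14, Crtap and Sec23a are lower in both osteogenic groups, Mia3 in vector cells stays between 26.7 and 27.4 FPKM, and Fkbp7 reaches 60.7 FPKM in EphrinB2 osteogenic replicate 1.

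Set side by side, 6 of 27 tested general chaperone, sensor and degradation genes fell, with a median log2 difference of -0.30. Of the collagen-specific folding and export genes 5 of 8 fell, with a median of -0.52. Over all tested genes 9.44% fell. In the 4 vector libraries fitted alone the counts were 16 of 27 and 5 of 8, with medians of -0.38 and -0.51, against 22.1% of all genes fallen. The difference between both sets was not tested. Among members with a promoter in the table, 2 of 10 tested genes with an ER stress element of either form fell, with a median of -0.33. Of those without it 8 of 23 fell, with a median of -0.30, again beside 9.44% of all tested genes. Hyou1, Kdelr2 and Fkbp10, which fell, have no promoter in the table and are in neither count.

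**Figure D3:**
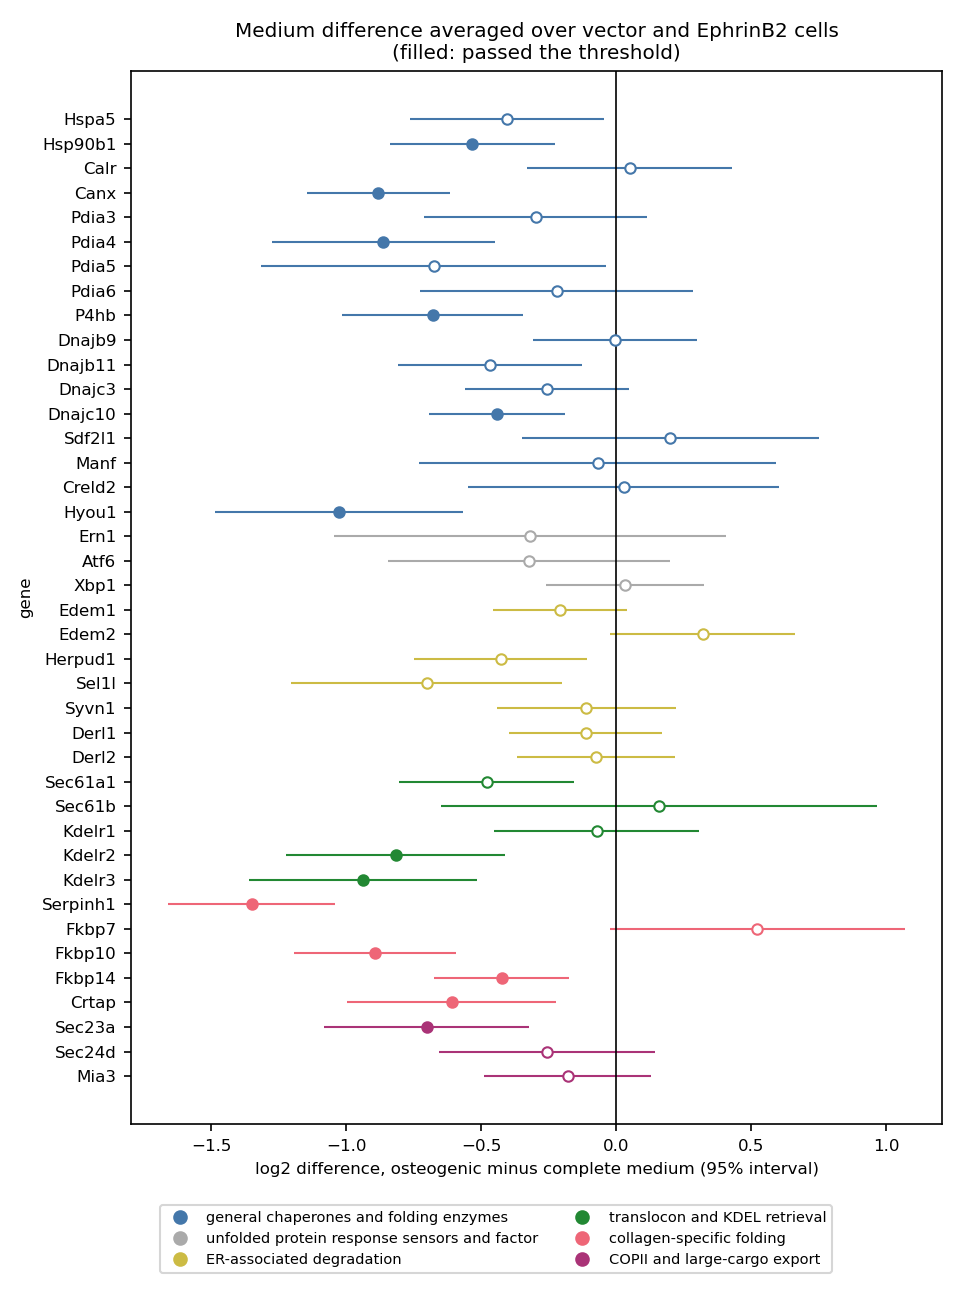
Log2 difference of the 40 tested genes between osteogenic and complete medium, averaged over vector and EphrinB2 cells, with 95% intervals and filled points for the 13 genes that passed. Serpinh1 lies lowest at -1.35, while Xbp1, Calr and Dnajb9 lie near 0 and Fkbp7 highest at 0.52.

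The medium differences in vector and in EphrinB2 cells share no library. Over the 40 members Spearman's rho between them was 0.63 and Pearson's r 0.65, beside 0.58 and 0.75 over all tested genes, as a description across genes of the same 8 libraries. In both kinds of cell 28 members lay below 0 and 3 above 0, Fkbp7, Edem2 and Xbp1, and 9 had opposite signs. Of all genes 34.8% lay below 0 in both, 34.3% above 0 in both and 30.9% had opposite signs. The interaction of medium and EphrinB2 tests whether the medium difference depended on EphrinB2. In limma it passed for 0 of 40 members and for 0% of all genes. The interaction had an unadjusted p under 0.05 for 0 members and for 1.65% of all genes. Its estimates ran from -0.63 for Atf6 to 0.98 for Sec61b (95% interval to 2.59 for the latter), so differences of that size were not excluded.

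**Figure D4:**
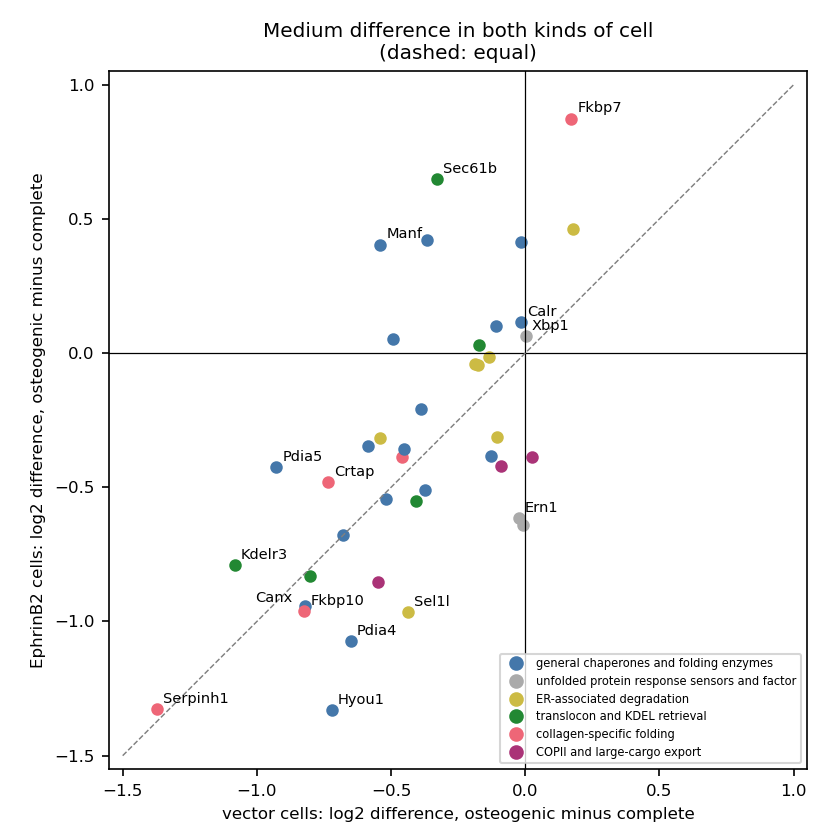
Log2 difference between osteogenic and complete medium in vector cells (x axis) and EphrinB2 cells (y axis) for the 40 tested genes, coloured by role, with a dashed line where both are equal. Serpinh1, Canx and Fkbp10 lie near the line at the lower left, and Sec61b, Manf, Sdf2l1 and Creld2 lie well above it.

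EphrinB2 against vector cells asks what overexpression changed within a medium. In complete medium 0 of 40 members passed, against 0% of all genes risen and 0.0077% fallen. An unadjusted p under 0.05 was found there for 0 members and for 1.285% of all genes. In osteogenic medium and averaged over both media 0 of 40 passed as well, and 0% of all genes rose or fell. Again 0 members had an unadjusted p under 0.05, against 3.39% of all genes in osteogenic medium and 2.55% averaged. With shares this low, 0 of 40 does not set the members apart from all genes. The estimates ran from -0.32 for Manf to 0.47 for Pdia4 in complete medium and from -0.74 for Ern1 to 0.76 for Sec61b in osteogenic medium. Averaged over both media, Serpinh1 was at 0.08 (95% interval -0.23 to 0.39), Hspa5 at 0.11 (-0.25 to 0.47), Canx at -0.04 (-0.30 to 0.22) and Fkbp10 at 0.19 (-0.12 to 0.49). Xbp1 was the only member with all 4 EphrinB2 libraries above all 4 vector libraries, at 42.0 to 52.2 against 37.1 to 41.2 FPKM, which 1.29% of all genes also showed (0.654% lay below), and its log2 difference of 0.23 (95% interval -0.07 to 0.52) did not pass. Without EphrinB2 osteogenic replicate 2, which leaves replicate 1 alone in its group, 4 members rose in osteogenic medium (Creld2, Kdelr1, Kdelr2 and Pdia3) and 4 fell (Ern1, Sec23a, Sec24d and Sec61a1), against 12.1% and 9.03% of all genes.

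The EphrinB2 libraries of a group differed from each other far more than the vector libraries did. Over the 40 members the SD of the log2 difference between partners was 0.09 in vector complete and 0.0962 in vector osteogenic libraries, and 0.446 and 0.569 in the EphrinB2 groups. In EphrinB2 cells this difference went with the merged exon length of the gene. Spearman's rho over the 40 members was 0.54 for EphrinB2 complete replicate 2 minus replicate 1 and -0.76 for EphrinB2 osteogenic replicate 1 minus replicate 2, beside 0.44 and -0.51 over all genes, and 0.06 and 0.01 over the members in vector cells. In EphrinB2 osteogenic replicate 1 the members with 1108 to 1366 exon bases were high, with Sec61b 2.53-fold, Creld2 1.99-fold and Sdf2l1 1.98-fold above its partner, as was Manf at 2.15-fold. Members with 8173 to 9231 exon bases were low there, with Ern1 3.17-fold, Sel1l 1.81-fold and Atf6 1.80-fold below its partner, while Derl2, the next longest at 8049 bases, was 1.40-fold above it. Serpinh1 and Canx differed between these partners by 1.18-fold and 1.01-fold.

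**Figure D5:**
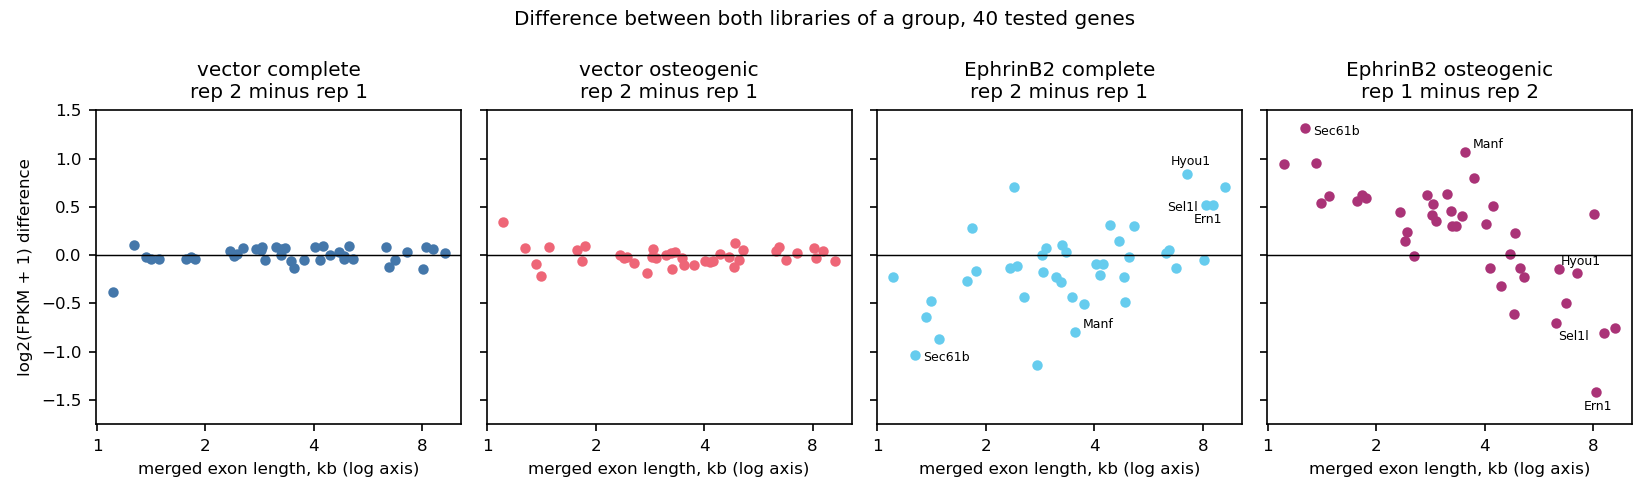
Log2(FPKM + 1) difference between both libraries of a group against merged exon length (log axis), 1 panel per group, for the 40 tested genes. Vector partners show no trend with length (rho 0.06 and 0.01), with Sdf2l1 farthest from 0 at -0.38 and 0.34, while differences climb with length in EphrinB2 complete cells (rho 0.54) and descend in EphrinB2 osteogenic cells (rho -0.76).

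Leaving out both EphrinB2 libraries that stood apart gave 27 members fallen and 2 risen, Ern1 and Fkbp7, in the averaged media comparison, against 25.7% and 22.5% of all genes. By role 13 of 17 general chaperones, 4 of 7 degradation genes, 5 of 5 translocon and retrieval genes, 4 of 5 collagen-specific folding genes and 1 of 3 export genes then fell. This leaves 1 library in each EphrinB2 group, so the spread comes from vector cells and the lone libraries are taken to share it.

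Genes of the same pathways beyond the members were read from lists by function, in the averaged media comparison with all 8 libraries. In that comparison 9.44% of all tested genes fell and 10.3% rose, and the fallen counts of COPII and COPI genes below lay near that share. Of 30 other tested ER folding genes 6 fell and 0 rose. The thioredoxin-domain protein Txndc5 (-0.81, SE 0.11, limma adjusted p = 0.00362), Fkbp9 (-0.70) and Tmx4 (-0.51) fell with the smallest adjusted p. Of 28 other translocon, signal peptidase and glycosylation genes 7 fell and 0 rose, among them the oligosaccharyltransferase subunit Stt3a (-0.65) and the translocon-associated Ssr3 (-0.66) and Ssr1 (-0.67). Of 26 other COPII and cargo receptor genes the cargo receptors Mcfd2 (-0.83), Lman1 (-0.67) and Surf4 (-0.47) fell and 0 rose. Of 11 COPI genes, whose coat carries retrieval traffic, Copg1 (-0.52) fell and 0 rose. Without any 1 vector library these counts dropped to 1 fallen folding gene, 0 to 2 translocon and glycosylation genes, 0 to 1 COPII and cargo receptor genes and 0 COPI genes, and without EphrinB2 complete replicate 2 the COPI count was 0.

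Degradation genes and stress regulators beyond the members were read in the same way, beside the same 9.44% of all tested genes fallen and 10.3% risen. The counts of degradation genes lay near these shares in both directions. Of 23 other degradation genes 3 rose, namely the lectin Os9 (0.69, SE 0.12, limma adjusted p = 0.00908), Tmub1 (0.72) and the ubiquitin-conjugating enzyme Ube2g2 (0.65), and 2 fell, among them the mannosidase Man1b1 (-0.49). Of 14 other unfolded protein response regulators 3 fell and 0 rose. They were the ER-anchored factors Creb3l1 (-1.005, SE 0.13, limma adjusted p = 0.00288) and Creb3l2 (-1.37), which are known to drive secretory genes in bone and cartilage cells, and the stress-induced pseudokinase Trib3 (-1.09). Atf4, Ddit3 and Eif2ak3, the factors and kinase of the Perk branch, were at -0.22, -0.24 and -0.40 and did not pass (adjusted p = 0.642, 0.63 and 0.0586). Without any 1 vector library 0 of the degradation genes passed, and 3 stress regulators fell.

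Collagen itself and the enzymes that modify it are the cargo and the partners of the collagen chaperones. Of 15 other collagen modification genes 9 fell and 2 rose, against 9.44% and 10.3% of all tested genes. This list is not of enzymes alone, as it also holds the channel gene Tmem38b and the COPII genes Sec31a and Sar1a. Sec31a, Sar1a and Ppib are counted in the COPII or folding lists above as well. The prolyl 4-hydroxylase subunits P4ha3 (-1.82, SE 0.11, limma adjusted p = 0.000111) and P4ha1 (-1.26) fell, while the ER cation channel gene Tmem38b (1.77) and the lysyl hydroxylase Plod1 (0.35) rose. Of 8 tested fibrillar collagens 7 fell, with a median log2 difference of -1.49, with the smallest adjusted p for Col3a1 (-1.77), Col5a2 (-1.93) and Col1a1 (-2.04), and Col27a1 (-0.07) did not pass. Without any 1 vector library 4 modification genes and 6 collagens fell. The FPKM ratio of Serpinh1 to Col1a1 was 0.672 to 0.693 in vector complete and 0.879 to 0.883 in vector osteogenic libraries. In EphrinB2 cells complete medium gave 0.749 and 0.472 and osteogenic medium 1.58 and 0.922, the libraries that stood apart holding both the lowest and the highest ratio.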

How the data were processed

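The deposited table holds 1 FPKM value per Ensembl gene and library, made by the authors. Per the submitters' processing notes the tools include HISAT2 2.0.5, CASAVA, DESeq2 1.16.1 and featureCounts 1.5.0-p3, and the build is mm10. The sources used here give no annotation release, strand setting or filter. Of 54532 identifiers 54409 matched GENCODE M21 (GRCm38), which gave symbols, places and merged exon lengths, and 123 did not.

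Counted reads per library were estimated from the steps between low FPKM values, which were whole reads within 0.02 for 98.1% to 98.3% of genes under 50 reads. Such counts carry counting error only, and near-identical or overlapping genes may share reads. Opposite-strand genes cover 10.3% of the exon bases of Hsp90b1, 8.9% of Sec23a and Manf, 8.2% of Sec61a1 and 5.0% of Fkbp14.

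Genes with at least 1 FPKM in at least 2 of 8 libraries were tested as log2(FPKM + 1), which understates changes of low genes. Fold changes between groups are on that scale, and folds between partner libraries and ratios of genes are plain FPKM ratios. All libraries entered 1 limma 3.58.1 model (R 4.3.3) with 4 group means, a mean-variance trend, 4 residual and 2.72 prior degrees of freedom, giving two-sided moderated tests and 95% intervals for 7 comparisons. P-values were adjusted by Benjamini-Hochberg over all 12994 genes, and genes under 0.05 are said to have risen or fallen. The steps were tested on simulated data.

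The members and lists were chosen with earlier results of these data known. Values per library are given for up to 12 called members per comparison with the smallest adjusted p, and for Hspa5, Hsp90b1, Xbp1, Serpinh1 and Mia3. From each other list up to 3 called genes per comparison are named. Others (Calr, Crtap, Fkbp7, Edem2, Sel1l, Herpud1, Ern1, Atf6, Plod1, Man1b1, Col27a1, Atf4, Ddit3 and Eif2ak3 among them) were singled out after their values were seen. Alternatives were a pseudocount of 0.1, no filter, median-ratio rescaling, quantile normalization, no trend, the compared groups alone, removal of a trend on gene length, and leaving out libraries.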

Additional observations from a re-analysis of the deposited data

How the results depend on the processing

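Called members in the media comparisons (3 in vector cells, 5 in EphrinB2 cells, 13 averaged) depended on which libraries gave the spread. In vector cells 1 passed with no filter (0.988% of all genes fell and 1.49% rose). With the gene length trend removed 8 passed there (5.14% and 6.79%), and with the compared groups alone 25 (22.1% and 18.5%). Without both EphrinB2 libraries that stood apart, the spread also came from these vector libraries alone. In EphrinB2 cells the counts were 2 with no filter (1.62% and 1.89%), 10 with quantile normalization (5.88% and 5.96%), 15 with the length trend removed (8.71% and 8.6%), 0 with the compared groups alone (against 0.854% of all genes risen and 0.323% fallen) and 27 without both libraries that stood apart (15.7% and 14%). Averaged, 29 passed without both. Leaving out each library in turn gave 0 to 12 members in vector cells, 1 to 21 in EphrinB2 cells, 3 to 21 averaged and 0 to 8 for EphrinB2 against vector in osteogenic medium. These counts pool rises and falls, and each of the fits leaves 1 library in a group. They are therefore not set against all genes here. Shares of all genes risen and fallen are given with the results for several of these fits. The 8 came without EphrinB2 osteogenic replicate 2. Serpinh1, Canx and Fkbp10 passed the averaged comparison in 15 of 15 alternatives.

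Some signs turned when both libraries that stood apart were left out. In EphrinB2 cells the log2 difference between media was then -0.60 for Pdia6, -0.53 for Manf, -0.38 for Creld2, 0.35 for Ern1, -0.53 for Sec61b and -0.35 for Kdelr1. Averaged it was -0.37 for Creld2, 0.16 for Ern1 and -0.43 for Sec61b. The cause was not tested. Median-ratio rescaling and quantile normalization moved the median of all genes by less than 0.1 in each comparison.

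No paired analysis was possible because the labels give no replicate number shared between groups. With 2 libraries a group, 4 of them in the EphrinB2 groups differing widely, modest differences in EphrinB2 cells were not detectable.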
